A study of Mus musculus with 6 samples.

Results

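The complement system and the acute-phase response are arms of innate immunity that act through secreted and cell-surface proteins. In the classical pathway the protease C1r activates the protease C1s, which cleaves C4. In the alternative pathway factor B joins C3 to form a convertase. Both routes meet at C3, while C1 inhibitor, CD55 and CD59 restrain the cascade on host cells. Most of these proteins come from the liver, but bone-forming cells also make some of them, and cytokines of the interleukin-6 and interleukin-1 families, acting through STAT3, NF-kB and C/EBP factors, are known inducers of acute-phase genes.

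The genes followed here are 9 named members, taken by symbol from the expression tables. They are the complement components C3, C4b, C1ra and Cfb, the regulators Serping1, Cd55 and Cd59a, and the acute-phase genes Lcn2 and Saa3. Of the 9, 8 have a row among the 26187 genes of each table, and Cd55 is not analysed here. RNA-Seq was done on MC3T3-E1 cells, a clonal pre-osteoblast line from mouse calvaria. All libraries came from cells kept for 2 days in osteoconductive (OC) medium, which holds ascorbic acid and β-glycerophosphate. The PAKG group of 3 libraries also received 30 μg/mL of PAKG–8diol–PEG(S) MPs, small microparticles of a polyester that carries α-ketoglutarate, and the OC group of 3 libraries received no particles. The question is how the complement and acute-phase genes of these cells differed between the 2 groups. Cell experiments of the study used triplicate wells in each group, but the sources do not say how the sequenced libraries relate to wells or to repeats of the experiment. A p-value here sets a difference against the spread of the 3 libraries in each group. In the fits that spread was moderated by that of the other tested genes. The spread between libraries may be technical.

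The values are FPKM, fragment numbers scaled to transcript length and to library size, as the authors deposited them. On a transcript of 1 kb, 1 fragment was worth an estimated 0.0266 to 0.0311 FPKM in the OC libraries and 0.0233 to 0.0303 FPKM in the PAKG libraries, so the depths were close. All 7 osteoblast lineage markers, among them Runx2, Sp7 and Col1a1, averaged at least 0.5 FPKM, and their summed level was 4658.9 to 5713.76 FPKM in OC and 6828.51 to 7579.47 FPKM in PAKG. Of 5 macrophage markers with a row, 3 reached that level (Cd68, Lyz2 and Cd14), with sums of 13.07 to 17.36 FPKM in OC and 19.91 to 22.09 FPKM in PAKG, and the pan-leukocyte gene Ptprc was near 0. None of the 2 neutrophil or 4 hepatocyte markers with a row averaged 0.5 FPKM. The hepatocyte marker Apoa1 was at 0.85 FPKM in PAKG replicate 2. The neutrophil marker Camp lay at 0.10 to 0.24 FPKM in OC and at 0.30 to 0.48 FPKM in PAKG. Replicate 2 of both groups stood apart from the other libraries, and without the 2 the values are given where a result turns on them.

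C1ra, the gene of the protease that activates C1s, was by far the most abundant member. It stood above 97.4% of all genes, and no other member passed 1 FPKM in any library. C1ra was listed at 60.56, 56.78 and 54.92 FPKM in the OC libraries and at 66.70, 69.12 and 64.97 FPKM in the PAKG libraries. All 3 PAKG libraries lay above all 3 OC libraries, and the PAKG mean was 16.6% above the OC mean. In such bulk samples a change in the number of cells of a type and a change in the RNA of each cell cannot be told apart. Cfb, the gene of complement factor B, was the next most abundant at 0.63, 0.22 and 0.36 FPKM in OC and 0.78, 0.55 and 0.53 FPKM in PAKG. The 2 groups overlapped for Cfb, because OC replicate 1 exceeded 2 of the PAKG libraries.

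Only C1ra and Cfb passed the filter of a mean of 0.5 FPKM, so a test over all expressed genes covered 2 of the 8 members with a row. Of these 2, 0 passed an adjusted p of 0.05 in limma, against 14.7% of the 12590 genes tested (5.97% higher and 8.73% lower in PAKG), and 0 were differentially expressed at a fold change of at least 2, against 1.45% (0.866% higher and 0.58% lower). At an unadjusted p of 0.05, 1 of the 2 passed, C1ra, beside 3630 of the 12590 genes tested. Among all tested genes 751 were higher and 1099 lower in PAKG at the adjusted p, a split that became 874 and 764 when the libraries were scaled to a common total.

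For C1ra the log2 fold change on the log2(FPKM + 0.1) scale was 0.22 (SE 0.07, 95% interval 0.06 to 0.38, n = 3 in each group). Its adjusted p was 0.0709 in limma. With the replicate number as a block, the adjusted p was 0.0218, in a fit that called 29.5% of the tested genes. That pairing was inferred from correlations in these data and is not stated in the sources. With median-ratio scaling the adjusted p was 0.0444, so the call depended on the design and the scaling. Over the 15 alternatives the log2 fold change stayed between 0.19 and 0.27, while the adjusted p ran from 0.0218 to 0.231, the highest without OC replicate 3. Without replicate 2 of both groups, it was 0.0962 at a log2 fold change of 0.19. Groups that do not overlap were found for 33.4% of the tested genes, so the separation of C1ra was a common pattern. For Cfb the log2 fold change was 0.58 (SE 0.34, 95% interval -0.20 to 1.37) with an adjusted p of 0.308, and a difference of this size was within the spread between libraries. The estimate for Cfb rested on OC replicates 1 and 2, since it was 0.89 without the first (adjusted p = 0.128) and 0.30 without the second (adjusted p = 0.596). The median log2 fold change of C1ra and Cfb was 0.40 beside -0.03 over all tested genes.

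**Figure D1:**
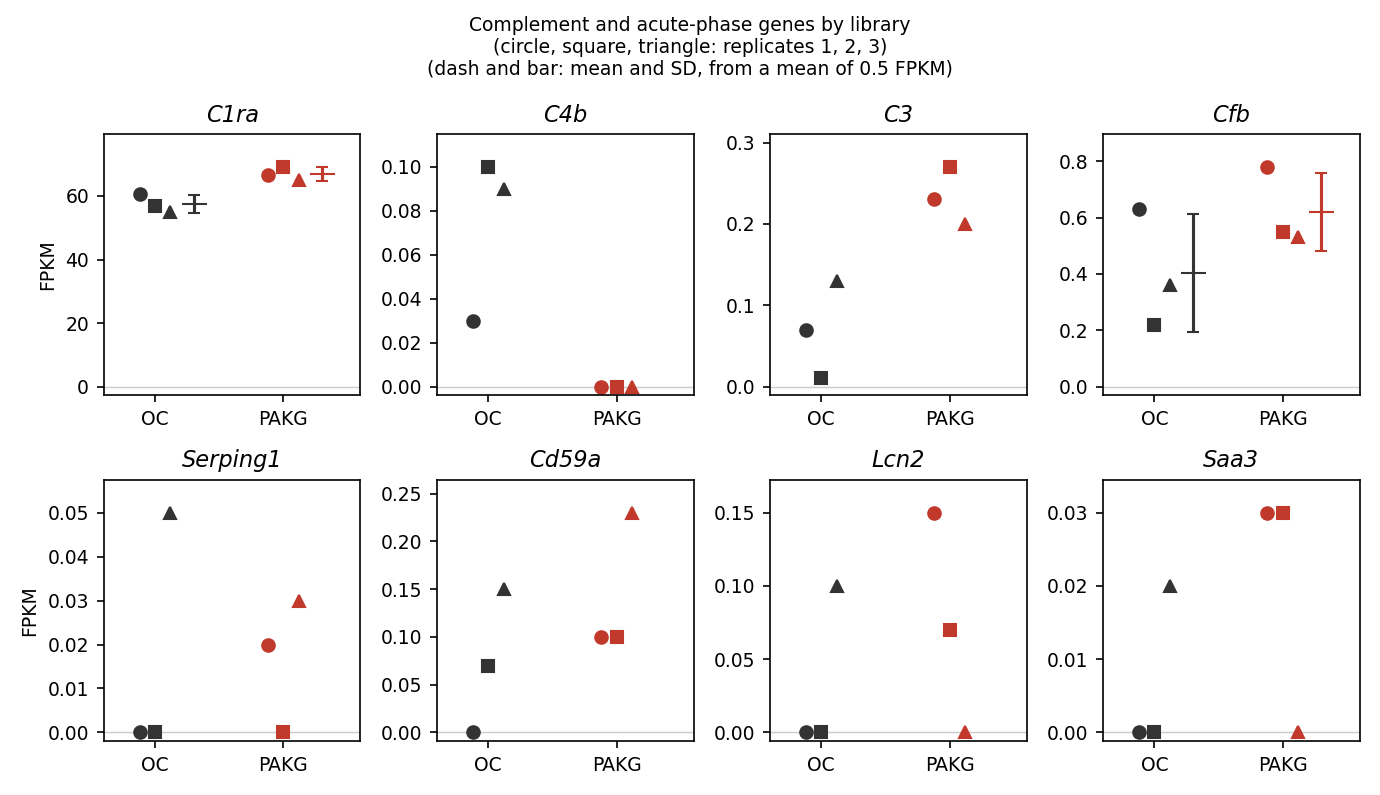
FPKM of the 8 complement and acute-phase genes with a row (y axis, a separate linear scale for each gene) in the 3 OC and 3 PAKG libraries, with the mean and SD drawn for C1ra and Cfb. C1ra lies between 54.92 and 69.12 FPKM with the groups apart, and the 6 other genes besides Cfb lie under 0.3 FPKM, with C4b listed at 0 in every PAKG library.

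The 6 other members with a row were under the filter, and their values are described here without weight on any test. C3, the central component of all complement pathways, was listed at 0.07, 0.01 and 0.13 FPKM in OC and at 0.23, 0.27 and 0.20 FPKM in PAKG. The PAKG libraries were all above the OC libraries for C3. On its longest listed transcript of 5136 bases these values correspond to an estimated 1.9 to 24.3 fragments in OC and 33.9 to 50.7 fragments in PAKG. In a fit with no filter on low values the log2 fold change of C3 was 1.03 (SE 0.30, adjusted p = 0.128). C3 thus had a larger difference than C1ra at a far lower level, and it did not pass the adjusted test.

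C4b, the classical pathway component cleaved by C1s, went the other way. It was listed at 0.03, 0.10 and 0.09 FPKM in OC and at 0 in all 3 PAKG libraries. The OC values correspond to an estimated 5.2, 20.2 and 17.6 fragments on a transcript of 5379 bases, so that OC replicate 1 was the nearest to 0. The fit with no filter gave C4b an adjusted p of 0.0763, and no fold change is given against a group listed at 0. Among the 13152 genes above 0 with a mean under 0.5 FPKM, 7.63% had groups that did not overlap, and C3 and C4b were 2 of the 6 low members with that pattern.

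The regulators and the acute-phase members were at the edge of detection. Serping1, the gene of C1 inhibitor, was listed at 0, 0 and 0.05 FPKM in OC and at 0.02, 0 and 0.03 FPKM in PAKG, and no library held more than an estimated 3.2 fragments of it. Cd59a, whose product blocks the membrane attack complex, was listed at 0, 0.07 and 0.15 FPKM in OC and at 0.10, 0.10 and 0.23 FPKM in PAKG. The groups overlapped for both regulators. Lcn2, the gene of the siderophore-binding protein lipocalin 2, was listed at 0, 0 and 0.10 FPKM in OC and at 0.15, 0.07 and 0 FPKM in PAKG. Saa3, a serum amyloid A gene, was listed at 0, 0 and 0.02 FPKM in OC and at 0.03, 0.03 and 0 FPKM in PAKG. Both acute-phase members were listed at 0 in 3 of the 6 libraries and overlapped between the groups. With no filter the adjusted p was 0.978 for Serping1, 0.592 for Cd59a, 0.70 for Lcn2 and 0.644 for Saa3. No library held more than an estimated 13.7 fragments of any of these 4 genes, and none of them differed beyond the spread between libraries.

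Several members share sequence with a neighbour or copy, so that the split of fragments between gene models can move their values. C1ra lies on chromosome 6 at chr6:124512405-124523443 on the plus strand (GRCm38), in a cluster with its copy C1rb (chr6:124570294-124581171, plus strand), C1s1 (chr6:124530345-124542359, minus strand) and C1s2 (chr6:124624625-124636085, minus strand). The coding sequences of C1ra and C1rb are 97.9% identical, with 42 mismatches, and 48.0% of the 50-base stretches of the C1ra transcript occur in C1rb. The 90-base coding windows in exon 11 of 11 that hold the most mismatches are shown because fragments from such stretches can tell the copies apart, with the 13 differing bases in capitals.
C1ra, chr6:124522647-124522736, plus strand: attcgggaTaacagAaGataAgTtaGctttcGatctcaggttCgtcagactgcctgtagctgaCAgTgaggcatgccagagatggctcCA
C1rb, chr6:124580693-124580782, plus strand: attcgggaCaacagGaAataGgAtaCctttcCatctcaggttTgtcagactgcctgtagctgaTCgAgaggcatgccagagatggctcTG

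C1rb was listed at 5.24, 6.11 and 4.32 FPKM in OC and at 6.46, 4.40 and 6.09 FPKM in PAKG (log2 fold change 0.11, SE 0.17, adjusted p = 0.745). The ratio of C1ra to C1rb varied from 9.29 to 15.71 among the libraries with no order by group. Their sum was 62.64 ± 3.29 FPKM in OC and 72.58 ± 1.33 FPKM in PAKG (SD, n = 3), a ratio of 1.16 that is close to that of C1ra alone, and the groups did not overlap. C1ra was at least 9.29 times C1rb in every library, so the sum had to lie close to C1ra and is not a separate check.

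Cfb (chr17:34856374-34862518, minus strand) lies inside the predicted gene Gm20547 (chr17:34856412-34882042, minus strand) over nearly all of its length, and 81.4% of the 50-base stretches of Cfb occur in the Gm20547 transcript. Gm20547 was listed at 0, 0.24 and 0.24 FPKM in OC and at 0, 0.03 and 0 FPKM in PAKG. The 2 OC libraries with the lowest Cfb values were those with the highest Gm20547 values. When the 2 models were added, a choice made after the data were seen, the sum was 0.63, 0.46 and 0.60 FPKM in OC and 0.78, 0.58 and 0.53 FPKM in PAKG. The PAKG mean was 53.7% above the OC mean for Cfb alone and 1.12 times the OC mean for the sum, and the groups overlapped.

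C4b (chr17:34728380-34743882, minus strand) has a near copy, C4a, with which it shares 35.2% of its 50-base stretches. C4a was listed at 0.26, 0.20 and 0.22 FPKM in OC and at 0.27, 0.19 and 0.27 FPKM in PAKG, with the groups overlapping. The sum of C4b and C4a was 0.29, 0.30 and 0.31 FPKM in OC and 0.27, 0.19 and 0.27 FPKM in PAKG. The PAKG libraries stayed below the OC libraries for the sum, at a ratio of 0.811, so the position of C4b at 0 in PAKG was much less marked when both copies were counted.

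**Figure D2:**
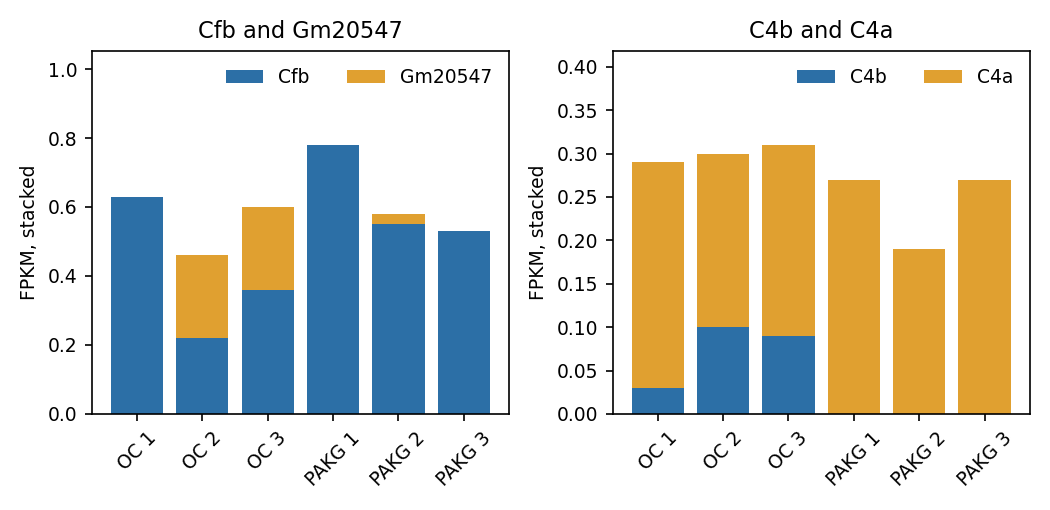
Stacked FPKM (y axis) of Cfb with the overlapping gene Gm20547 and of C4b with its copy C4a in each of the 6 libraries (x axis). Gm20547 is at 0.24 FPKM in OC replicates 2 and 3, where Cfb is lowest, and the C4b and C4a total is 0.29 to 0.31 FPKM in OC and 0.19 to 0.27 FPKM in PAKG.

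The gene of the partner protease of C1r passed the test that C1ra missed. C1s1, the gene of the protease that C1r activates, was listed at 52.53, 51.75 and 51.31 FPKM in OC and at 76.89, 80.75 and 78.63 FPKM in PAKG. It rose with a log2 fold change of 0.60 (SE 0.06, adjusted p = 0.00103) and was called in all 15 alternatives. The ratio of C1ra to C1s1 was 1.153, 1.097 and 1.07 in the OC libraries and 0.867, 0.856 and 0.826 in the PAKG libraries, so C1ra exceeded C1s1 in every OC library and was below it in every PAKG library. The log2 ratio was 0.15 ± 0.06 in OC and -0.23 ± 0.04 in PAKG (SD, n = 3), a difference of -0.38. The exact 2-sided permutation p was 0.1, the smallest that 3 against 3 libraries allow, and this ratio was chosen with the values of both genes known. C1rl, a C1r-like protease gene beside C1ra, averaged 6.55 FPKM in OC and 7.74 FPKM in PAKG (log2 fold change 0.24, adjusted p = 0.0602, and 0.0284 with the replicate block), a difference close to that of C1ra. Compared with 7208 genes averaging 5 FPKM or more, Arfip2 (Pearson r 0.9949), Fam20a (r 0.9913) and Abcb8 (r 0.9861) had patterns over the 6 libraries most like that of C1ra, given as a description.

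**Figure D3:**
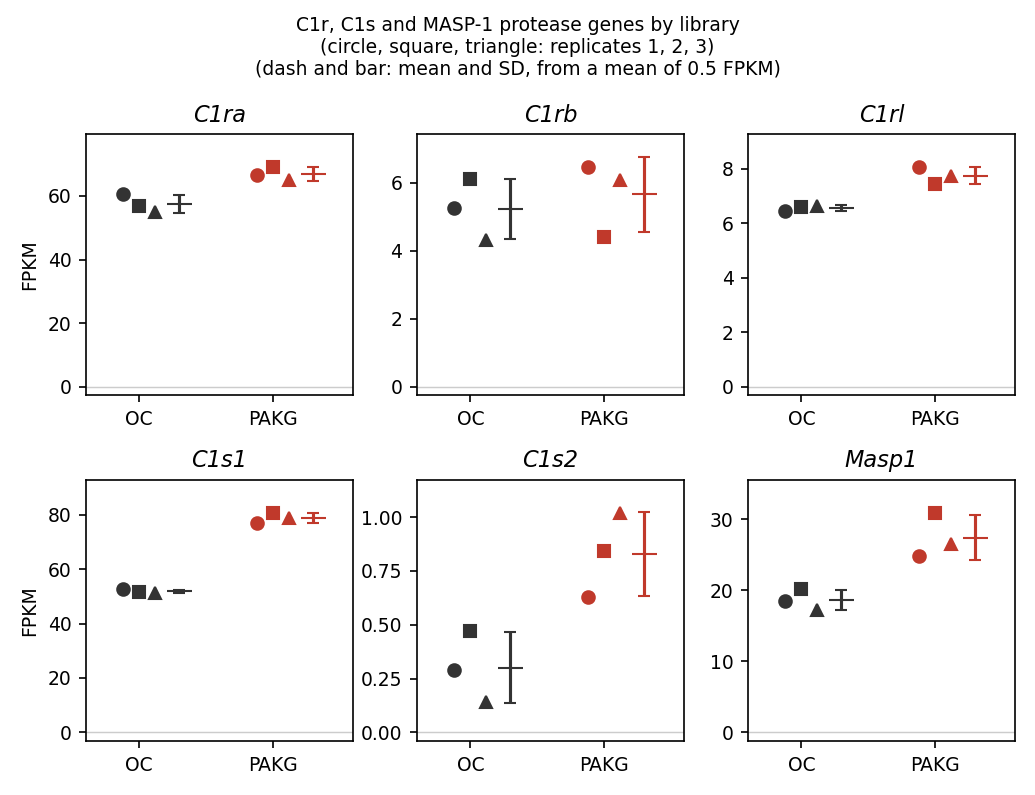
FPKM of 6 complement protease genes (y axis, a separate linear scale from 0 for each gene) in the 3 OC and 3 PAKG libraries, with the mean and SD of each group. C1s1 goes from about 51.9 to 78.8 FPKM while C1ra goes from 57.4 to 66.9 FPKM, and the groups overlap for C1rb.

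The other genes of the complement pathway came from a list of 49, of which 30 had a row and 13 were tested. Of the 13, 4 rose, 1 fell and 8 did not pass the adjusted p (38.5% called beside 14.7% of all tested genes, with a median log2 fold change of 0.34). With the replicate block 6 of the 13 passed, beside 29.5% of all tested genes. This list and the acute-phase and inducer lists below were chosen with earlier results of these data known. Their shares are therefore descriptions and do not measure enrichment. Among the initiating components C1s1, C1s2 (means of 0.30 and 0.83 FPKM, adjusted p = 0.0495) and Masp1, the gene of a lectin pathway protease (means of 18.7 and 27.4 FPKM, adjusted p = 0.0115), rose. C1s2, which shares 26.9% of its 50-base stretches with C1s1, lost its call in 7 of 14 alternatives, and Masp1 lost it without OC replicate 3 (adjusted p = 0.0567). The scavenger receptor gene Colec12 fell (27.4 FPKM in OC, 22.2 FPKM in PAKG, adjusted p = 0.0178), a call that was lost when the libraries were scaled to a common total and without PAKG replicate 1 or 3 or OC replicate 1 or 3 (adjusted p up to 0.105). Among the regulators 1 of 4 tested genes rose, Clu, whose product clusterin binds the terminal complex. Clu went from 2.37, 1.81 and 2.17 FPKM in OC to 5.40, 4.63 and 5.13 FPKM in PAKG (log2 fold change 1.22, SE 0.12, adjusted p = 0.000951). The tested receptor gene C1qbp and the tested terminal gene C8g did not pass either. The summed macrophage markers lay higher in PAKG beside these rises, mostly through Lyz2 (8.51 to 11.46 FPKM in OC and 15.22 to 16.95 FPKM in PAKG). Cd68 (means of 0.56 FPKM in OC and 0.53 FPKM in PAKG) and Cd14 (4.24 and 4.37 FPKM) overlapped between the groups. Csf1r, under the filter, lay higher in PAKG (means of 0.09 and 0.26 FPKM). The part of these markers in the result was not tested.

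Of 27 other genes listed as acute-phase, which include the receptor gene Slc22a17, 22 had a row and 6 were tested. Of these 6, 3 rose, Slc22a17 among them, and 1 fell (66.7% called beside 14.7% of all tested genes, with a median log2 fold change of 0.38). With the replicate block 4 of the 6 passed, beside 29.5% of all tested genes. Ptx3, the gene of the long pentraxin that can bind C1q, went from 27.62, 24.45 and 27.17 FPKM in OC to 38.79, 36.19 and 36.95 FPKM in PAKG (log2 fold change 0.50, SE 0.07, adjusted p = 0.00471). Slc22a17, the gene of a receptor for lipocalin 2, rose from 1.72 to 2.47 FPKM (adjusted p = 0.0328), while its ligand gene Lcn2 stayed at the edge of detection. Cp, the gene of ceruloplasmin, rose from 6.0 to 7.81 FPKM (adjusted p = 0.0375), and the metallothionein gene Mt2 fell from 20.4 to 15.6 FPKM (adjusted p = 0.0321). The calls of Slc22a17, Cp and Mt2 each ended when any of 5 of the 6 libraries was left out, and Ptx3 kept its call in all 15 alternatives. The other 16 genes with a row were, like Lcn2 and Saa3, under the filter.

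The pathways known to induce acute-phase and complement genes were followed in a further list. Of 18 tested cytokine receptors, signal transducers and transcription factors, 6 fell, 1 rose and 11 did not pass (38.9% called beside 14.7% of all tested genes, with a median log2 fold change of -0.14). With the replicate block 8 of the 18 passed, beside 29.5% of all tested genes. Osmr, the oncostatin M receptor gene, fell from 4.54, 5.42 and 4.59 FPKM to 1.67, 1.89 and 1.63 FPKM (log2 fold change -1.43, SE 0.11, adjusted p = 0.000403). Others that fell were Socs3, a feedback inhibitor of STAT3 (12.8 to 7.0 FPKM), the interleukin-1 receptor gene Il1r1 (4.07 to 2.22 FPKM), Irf1 (11.3 to 7.89 FPKM) and Stat3 (16.4 to 11.2 FPKM). Lifr, the leukemia inhibitory factor receptor gene, rose from 11.4 to 15.7 FPKM. The calls of Stat3 and Lifr ended without PAKG replicate 3 or OC replicate 3, that of Stat3 also without PAKG replicate 1 and that of Lifr also without OC replicate 1, with adjusted p up to 0.0663 for Stat3 and 0.0959 for Lifr. Among the genes that did not pass were Rela, Nfkb1, Cebpb and Cebpd, and the shared receptor subunit Il6st did not pass without the replicate block (adjusted p = 0.578, and 0.0365 with it). C1ra and C3 lay higher and C4b lay lower in PAKG, in the same libraries in which Stat3 and Il1r1 were lower. C1ra in the main fit and C3 and C4b in the fit with no filter did not pass the adjusted p. A link between these members and the inducers was not tested.

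**Figure D4:**
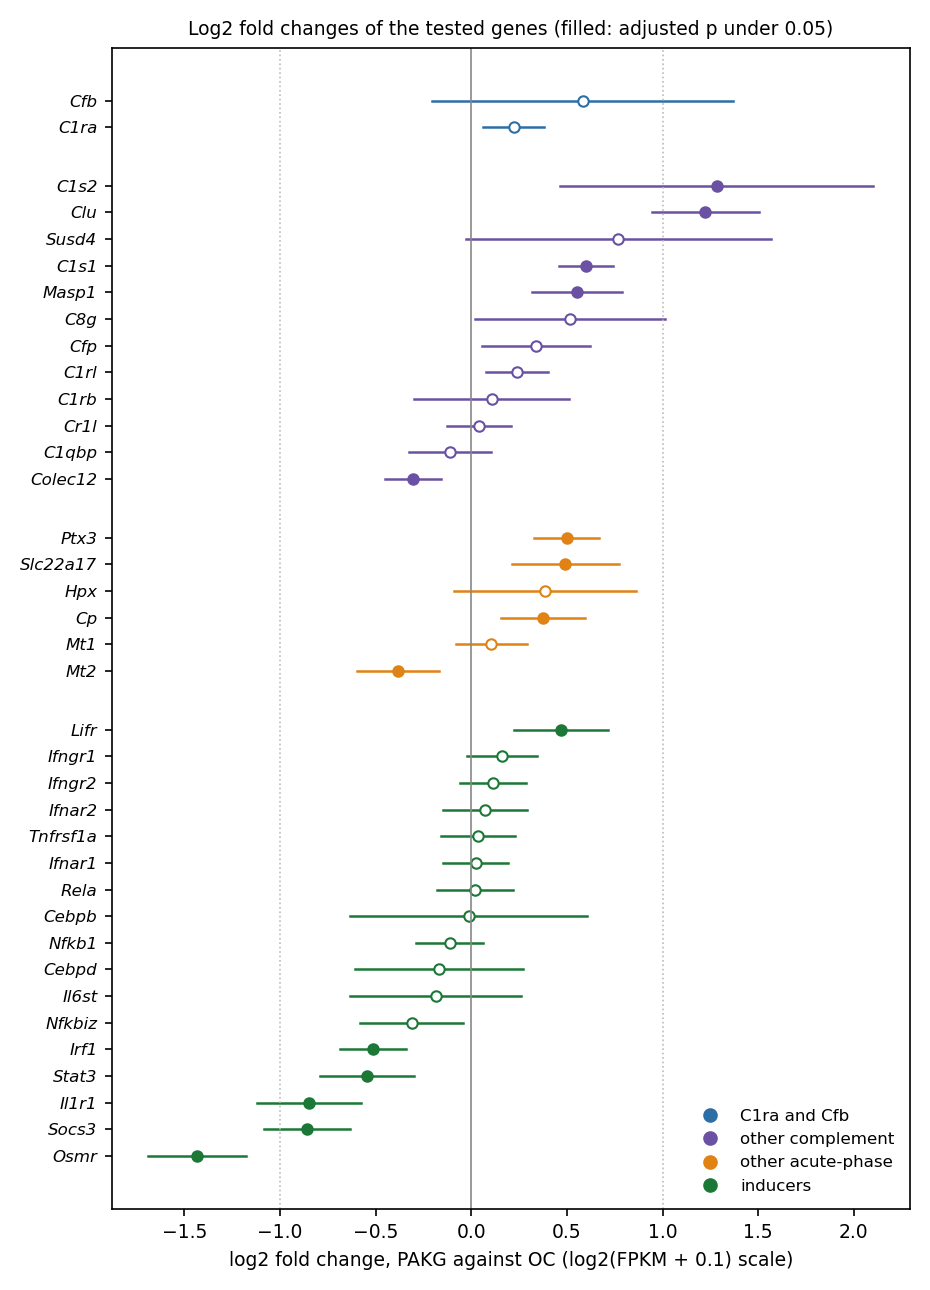
Log2 fold change of PAKG against OC on the log2(FPKM + 0.1) scale (x axis) for tested genes of the lists (y axis), with lines for the 95% intervals and filled points for an adjusted p under 0.05. C1ra and Cfb are open points above 0, C1s1, Clu, Masp1 and Ptx3 are filled points above 0, and Osmr, Socs3, Il1r1, Stat3 and Irf1 are filled points below 0.

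The upstream sequence of C3 is shown because C3 is a textbook target of C/EBP and NF-kB factors, whose genes were measured above. The 250 bases before the RefSeq start on the minus strand are chr17:57228137-57228386 (GRCm38.p6), with matches on either strand in capitals. The letters searched were TTGCNNAA for C/EBP and, for NF-kB, GGG and CC with 5 bases of any kind between them.
C3: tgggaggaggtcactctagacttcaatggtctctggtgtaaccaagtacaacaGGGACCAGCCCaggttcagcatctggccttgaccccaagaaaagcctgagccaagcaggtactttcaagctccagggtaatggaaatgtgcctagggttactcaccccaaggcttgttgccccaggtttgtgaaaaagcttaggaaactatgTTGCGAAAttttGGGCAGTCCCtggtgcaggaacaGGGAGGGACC
Counted from the C3 start, the C/EBP letters begin at -45 and the NF-kB letters at -197, -196, -33 and -10, the first 2 of which overlap. Over windows of 300 bases around 32851 starts, 10.8% held the C/EBP letters and 50.79% held the NF-kB letters. Of the 9 members, 6 had such a window, and the C/EBP letters were found in 4 of them (C3, C1ra, Lcn2 and Saa3) and the NF-kB letters in 4 (C3, Cd55, Cd59a and Lcn2). An interferon element, GAAA repeated with 2 bases between, was held by 3.44% of all windows and was found in Cd59a and Saa3, and a STAT element, TTCNNNGAA, was held by 8.3% and was found in C1ra. These matches are descriptions of the letters only, and members that share a match were not alike in level, since C1ra stood at 54.92 FPKM or more and Lcn2 and Saa3 near 0.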

How the data were processed

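RNA-Seq values of 3 PAKG and 3 OC libraries were used, grouped by the sample labels. The deposited values are FPKM per gene, rounded to 2 decimals, in 1 table for each library. Poly(A) libraries were made and sequenced by a service provider, and the tools in the submitters' processing notes are HISAT2, StringTie, cutadapt, FastQC and DESeq2, with the build GRCm38. Their versions and the gene annotation were not given in the sources used here, and the labels and the methods differ on the supplements of the OC medium. FPKM are not counts, so the DESeq2 comparison of the study could not be repeated, and the worth of 1 fragment was estimated from low values in single-transcript genes of 150 to 400 bases.

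Values were transformed to log2(FPKM + 0.1), which understates the changes of low genes. The groups were compared by limma 3.58.1 in R 4.3.3 (lmFit and trended eBayes) over the 12590 genes averaging 0.5 FPKM or more, with 2-sided p-values adjusted by Benjamini-Hochberg across them. Alternatives were another pseudocount (1 and 0.01), a filter at 1 FPKM or none, scaling to a common total or by median ratios, no trend, the replicate block, and each library left out, and, added after the data were seen, replicate 2 of both groups left out and the sums of overlapping genes. The limma step was tested on simulated data with no pairing of replicates and with changes larger than that of C1ra. The other steps were not tested in this way. Deviations from the group means correlated at 0.24, 0.43 and 0.192 for libraries with the same replicate number and at -0.312 to 0.138 for other numbers, so the numbers were used as pairs in the block alternative. Such deviations cancel out within a group, so the values for the same and for other numbers are not independent of each other. The sources do not state such a pairing. The main comparison has no block, as fixed in the design, and values with the block are given beside the results whose calls or background it changes.

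Coordinates and transcripts came from GENCODE M21 on GRCm38, which held 99.76% of the gene IDs, and promoter windows from RefSeq. Sequences were handled in Python 3.11.15 with biopython 1.88. Named were all members, every listed gene past the adjusted p and up to 3 of the highest genes in each role, except that 2 listed genes, which are in the list counts, are not reported here. The members and lists were chosen with earlier results of these data known.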

Additional observations from a re-analysis of the deposited data

How the results depend on the processing

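Of 268 alternative values of named genes, 225 kept their direction and their side of the threshold, 41 were no longer past it, 2 came to pass it (C1ra, with median-ratio scaling and with the replicate block) and 0 changed direction. No member was differentially expressed at a fold change of 2 under any alternative. The count of members past the adjusted p was 1 with median-ratio scaling and 1 with the replicate block, which also raised the genes past the adjusted p from 1850 to 3711, and among the tested genes of the complement, acute-phase and inducer lists and the members its calls differed for C1ra, C1rl and Il6st only. A pseudocount of 1 gave 90 differentially expressed genes in place of 182, and without the mean-variance trend 2 acute-phase genes passed. Without 1 library, 2 to 5 complement genes passed (3 when PAKG replicate 1, PAKG replicate 3 or OC replicate 1 was left out, and 2 when OC replicate 3 was), 1 to 3 acute-phase genes passed (2 with PAKG replicate 2 left out, and 1 with PAKG replicate 1 or 3 or OC replicate 1 or 3) and 827 to 2227 genes passed in all (1114 with PAKG replicate 1 left out, 827 with PAKG replicate 3, 1104 with OC replicate 1 and 872 with OC replicate 3). Without replicate 2 of both groups, 6 complement, 4 acute-phase and 7 inducer genes passed, beside 2753 of the 12590 genes tested. The cause of these shifts was not tested. C1s2 lost its call in 7 of 14 alternatives and Cp in 8 of 15, and C1s2 and Cfb had no value under a filter at 1 FPKM. The values of Serping1, Cd59a, Lcn2 and Saa3 rest on a few fragments.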

Other observations

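Of the listed genes under the filter, 3 passed the adjusted p in the fit with no filter and were picked out after their values were seen. Lbp, the gene of lipopolysaccharide-binding protein, an acute-phase protein, was listed at 0.02, 0 and 0.06 FPKM in OC and at 0.35, 0.57 and 0.62 FPKM in PAKG (adjusted p = 0.00843). Vtn, the gene of the complement regulator vitronectin, was listed at 0.03, 0 and 0 FPKM in OC and at 0.13, 0.13 and 0.15 FPKM in PAKG (adjusted p = 0.0165). Serpina3g, a serine protease inhibitor gene, was listed at 0.32, 0.50 and 0.59 FPKM in OC and at 0.13, 0.15 and 0.06 FPKM in PAKG (adjusted p = 0.0475). In that fit 5.15% of 25742 genes passed. Il6, the gene of the main acute-phase cytokine, was also under the filter, at 0.20, 0.21 and 0.34 FPKM in OC and at 0.09, 0.08 and 0 FPKM in PAKG.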
